A study of Mus musculus with 8 samples.

Results

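The genes described here, apart from the dicarboxylate carrier Slc13a2, move inorganic sulfate across cell membranes, activate it or transfer it to other molecules. The 9 genes are the carriers Slc13a1, Slc13a2, Slc26a1 and Slc26a2, the activating enzymes Papss1 and Papss2, and the cytosolic sulfotransferases Sult1c2, Sult1b1 and Sult1d1. Members were all probe sets of the deposited table whose only gene symbol was one of these 9, which gave 17 probe sets of 45037 tested, for 9 of 18193 named genes. The 9 genes were chosen with the knockout and control values of these same arrays known: the members were selected on their log2 expression in the knockout and control arrays. Their differences and calls are therefore given as a description.

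RNA came from the 5 cm of small intestine next to the pylorus of male mice aged 6 months, on a diet with 4.5% fat. The 4 knockout mice (Pdx1flox/flox;VilCre) had both Pdx1 alleles floxed around exon 2 and carried a transgene with a 12.4 kb piece of the villin 1 promoter, which drives Cre in the intestinal epithelium. The 4 controls (Pdx1flox/flox) carried the same floxed alleles without the transgene, and the labels describe the mice as brothers of a litter. Cre and the loss of Pdx1 came together in the knockout mice, so their effects cannot be told apart. Pdx1 encodes a homeodomain protein that regulates transcription in pancreas and duodenum. Each sample was whole tissue on 1 Affymetrix array, so a lower value can come from fewer cells of a type or from less RNA per cell, which cannot be told apart. Values are log2 expression as the authors deposited them, with array medians between 5.23 and 5.27. Precision is limited by there being 4 arrays a group. On its brighter probe set Pdx1 ran from 5.58 to 6.18 in knockout samples, against 8.16 to 8.98 in control samples. The enterocyte marker Vil1 ran from 12.75 to 12.87 in knockout samples, against 12.49 to 12.69 in control samples. In limma with Benjamini-Hochberg adjustment over all probe sets, the adjusted p was 0.000416 for this Pdx1 probe set and 0.660 for Vil1.

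Cells cannot make use of sulfate until it is taken up and activated. Carriers in the apical membrane of the enterocyte bring dietary sulfate in, and exchangers in apical and other membranes also move it. Inside the cell the PAPS synthases join sulfate to ATP and phosphorylate the product, which gives PAPS, the sulfate donor of all sulfotransferases. Cytosolic sulfotransferases put sulfate on small molecules such as phenols, steroids and catecholamines, while sulfotransferases of the Golgi put it on mucins, proteoglycans and glycolipids.

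Slc13a1, Papss2 and Sult1c2 each had a probe set on which every knockout value was below every control value, while Papss1 and Sult1b1 each had one with every knockout value above. In the fit over all 45037 probe sets, 1 of the 17 was called lower at an adjusted p under 0.05, the brighter Slc13a1 probe set, and 0 were called higher (limma, with Benjamini-Hochberg adjustment; used for every adjusted p below). Over all probe sets 0.0377% were called lower and 0.00444% higher, 0.0422% in all. At an unadjusted p under 0.05, 5 of the 17 had a lower and 3 a higher knockout mean, where 7.13% of all probe sets passed in either direction, and an ordinary linear model called 0 in either direction. Groups without overlap occurred in 6 of the 17, 4 lower and 2 higher, against 2.33% lower and 2.1% higher, 4.43% in all, of the probe sets on the array. Since the genes were chosen with this contrast known, nothing is read from those shares. The median difference of the 17 was -0.05, against 4.75e-05 over all probe sets.

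**Figure D1:**
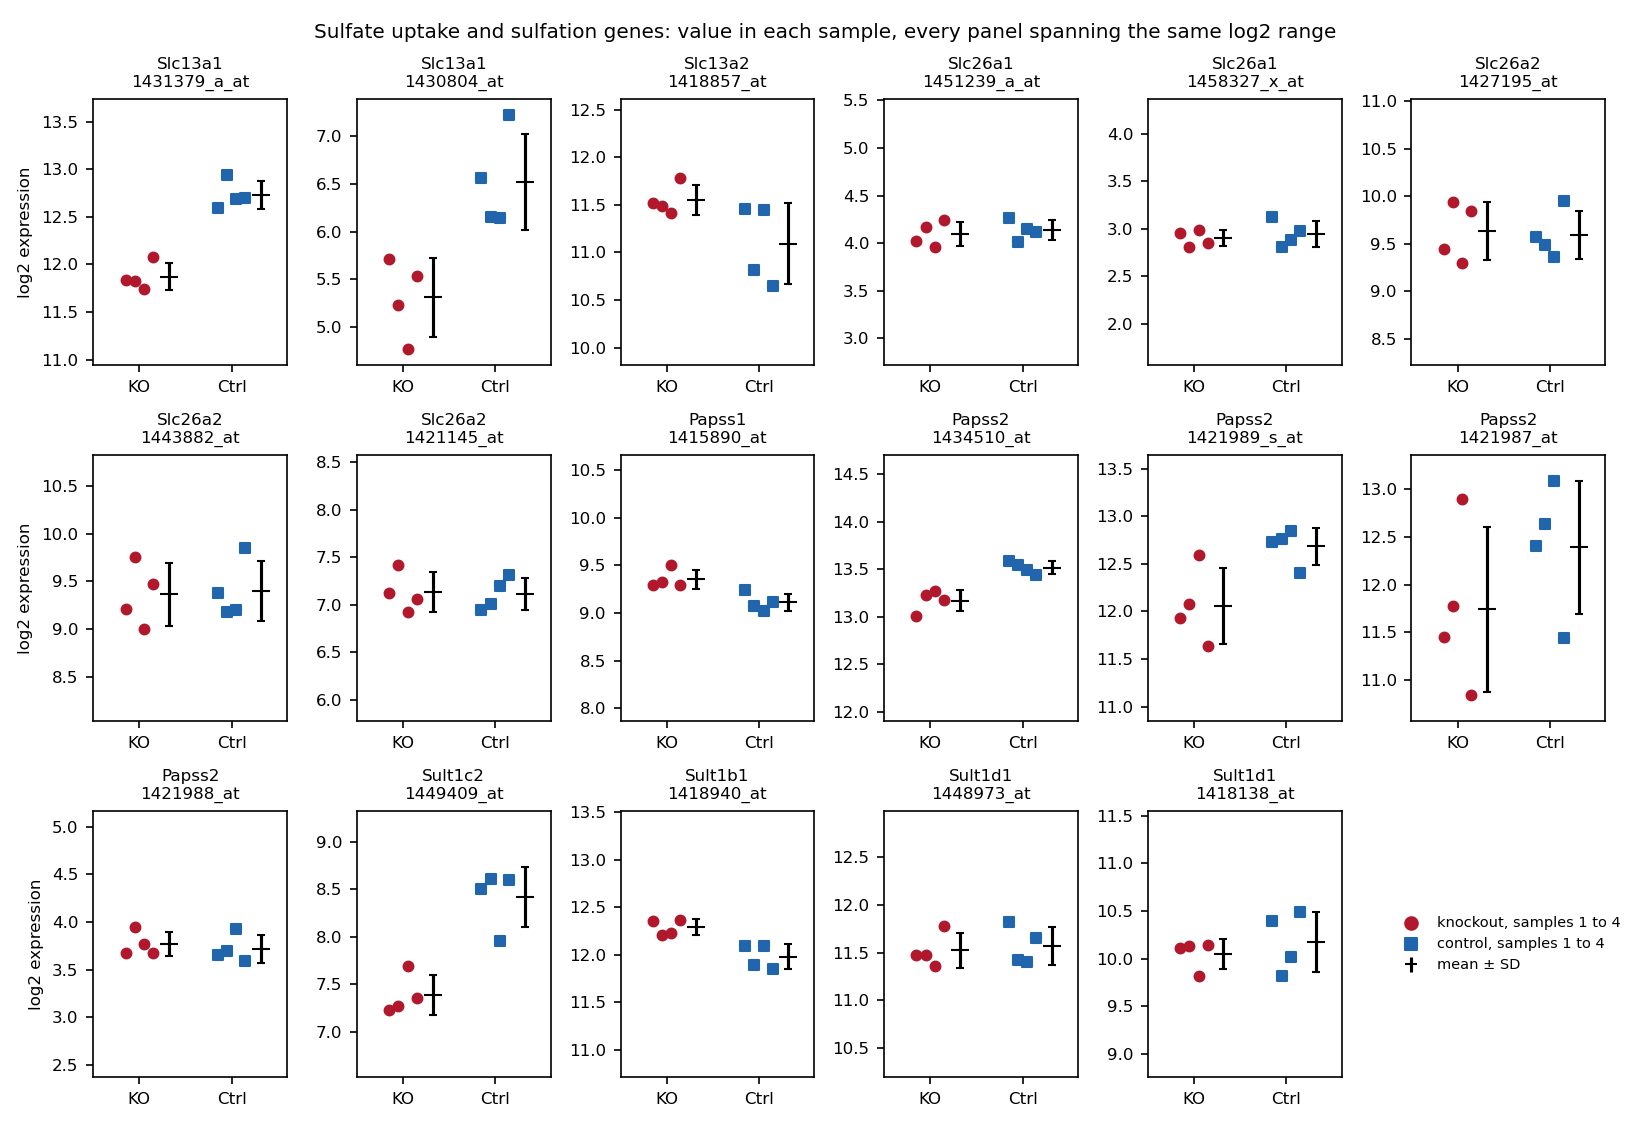
Log2 expression (vertical axis) in each knockout sample (red circles) and control sample (blue squares) for the 17 probe sets, with mean ± SD over 4 samples; the vertical axes differ in position but span the same range. Both Slc13a1 probe sets, Papss2 1434510_at and Sult1c2 have all 4 knockout values below all control values, and Papss1 and Sult1b1 have all 4 above.

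The sequences upstream of 4 of these 5 genes are shown because Pdx1 binds DNA through its homeodomain, whose known core motif is TAAT. They are the 250 bases before the transcript start in RefSeq's GRCm38.p6 promoter table, on the gene's strand. Where a gene had 2 starts, the first entry is printed. Capitals mark TAAT or its reverse complement ATTA.
Papss2, chr19:32595465-32595714, plus strand: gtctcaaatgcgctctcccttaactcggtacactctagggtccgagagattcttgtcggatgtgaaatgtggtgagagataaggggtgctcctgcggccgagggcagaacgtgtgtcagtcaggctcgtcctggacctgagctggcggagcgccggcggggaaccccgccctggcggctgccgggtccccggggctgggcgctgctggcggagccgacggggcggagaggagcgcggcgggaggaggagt
Sult1c2, chr17:53845959-53846208, minus strand: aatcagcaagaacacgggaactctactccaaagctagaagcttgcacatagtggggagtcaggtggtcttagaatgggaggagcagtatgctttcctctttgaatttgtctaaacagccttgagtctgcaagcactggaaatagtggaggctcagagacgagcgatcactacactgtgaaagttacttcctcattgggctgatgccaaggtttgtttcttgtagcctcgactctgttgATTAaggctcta
Papss1, chr3:131564518-131564767, plus strand: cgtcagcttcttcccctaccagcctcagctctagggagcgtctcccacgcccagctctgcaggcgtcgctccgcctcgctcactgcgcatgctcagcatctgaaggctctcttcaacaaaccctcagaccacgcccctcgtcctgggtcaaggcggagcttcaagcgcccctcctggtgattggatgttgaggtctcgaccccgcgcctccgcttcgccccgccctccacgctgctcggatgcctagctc
Sult1b1, chr5:87538196-87538445, minus strand: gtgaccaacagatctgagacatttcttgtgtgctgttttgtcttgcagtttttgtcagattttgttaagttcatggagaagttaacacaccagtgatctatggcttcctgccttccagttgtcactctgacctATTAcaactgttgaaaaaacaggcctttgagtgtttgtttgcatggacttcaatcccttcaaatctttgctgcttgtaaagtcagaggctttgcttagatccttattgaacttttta
The table matched 7 of the 9 genes, with 11 starts in all. It had no entry for Slc13a1, the only called gene of the 9, or for Slc26a2. The printed window of Sult1c2 held 1 match, which began 12 bases before the start, and that of Sult1b1 held 1, which began 117 bases before it. The printed windows of Papss1 and Papss2, with a GC content of 65.2% and 67.6%, held 0, while the second entry of each held 1. Of all 32851 windows of this length in the table, 54.9% held the motif on either strand, against 8 of the 11 windows here. The most matches were in the windows of Slc26a1, with 6 and 4, and of Sult1d1, with 5. The longer TAATTA, which contains TAAT on both strands, was in 2 of the 11 windows, those of Sult1d1 and the first of Slc26a1, against 4.84% of all windows. These matches describe letters in the window and were not tested as binding sites.

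Among the carriers, Slc13a1 was lower in the knockout intestine. It encodes a sodium-sulfate cotransporter of apical membranes in the intestine and kidney. Its brighter probe set (1431379_a_at) read 11.84, 11.83, 11.74 and 12.08 in knockout samples 1 to 4, against 12.59, 12.94, 12.69 and 12.70 in control samples 1 to 4. The groups lay apart by more than the range within either, which was 0.34 in both. The knockout averaged 11.87 ± 0.14 and the control 12.73 ± 0.15 (SD, n = 4 each), so Slc13a1 fell by 0.86 on the log2 scale (SE 0.097, 95% interval -1.07 to -0.64, adjusted p = 0.0106), to 55.1% of the control. The call was lost without knockout sample 1 (adjusted p = 0.0623) or knockout sample 2 (adjusted p = 0.0744), where the differences were -0.85 and -0.84.

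The dimmer Slc13a1 probe set (1430804_at) read 5.71, 5.23, 4.76 and 5.53 in the knockout, against 6.56, 6.15, 6.14 and 7.22 in the control. All knockout values were again the lower ones, with a wider spread in both groups. Its difference of -1.21 (SE 0.26, 95% interval -1.78 to -0.64) was not called (adjusted p = 0.393). These values lie near the array medians, where an unknown share of the signal is background.

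Slc13a2 differed in the opposite direction. It encodes a sodium-dicarboxylate cotransporter that carries citrate and succinate, so it is a relative of Slc13a1 by sequence rather than a known sulfate carrier. It read 11.52, 11.49, 11.41 and 11.78 in the knockout, against 11.46, 10.82, 11.45 and 10.64 in the control. Control samples 1 and 3 lay within the knockout range and control samples 2 and 4 below it, so the groups overlapped. The difference was 0.46 (SE 0.18, adjusted p = 0.676) and was not called.

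The exchangers of the Slc26 family showed little difference. Slc26a2, the sulfate-chloride exchanger whose human counterpart is mutated in diastrophic dysplasia, had differences of 0.04, -0.04 and 0.02 on its 3 probe sets. Its brightest probe set read 9.45, 9.94, 9.30 and 9.84 in the knockout, against 9.57, 9.49, 9.37 and 9.95 in the control. The 95% interval of that difference ran from -0.32 to 0.40, so shifts within it in either direction are not excluded by these arrays. Slc26a1, a sulfate and oxalate exchanger of basolateral membranes, averaged 4.10 and 2.90 in knockout samples, against 4.14 and 2.95 in control samples, on probe sets that were both below the array medians. Its differences of -0.04 and -0.05 therefore say little about the transcript.

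**Figure D2:**
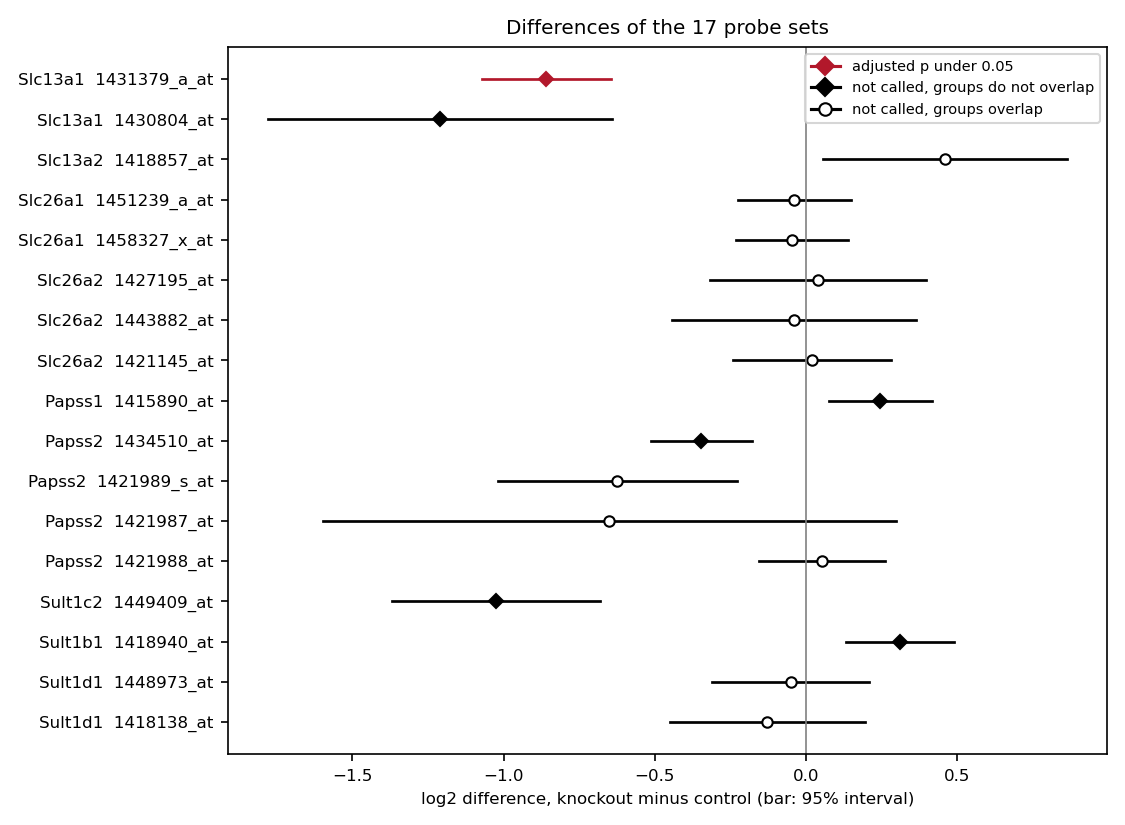
Log2 difference, knockout minus control, of each of the 17 probe sets (horizontal axis), with its 95% interval unadjusted for the number of probe sets; red marks the 1 called probe set and diamonds mark groups that do not overlap. Slc13a1 at -0.86 and -1.21 and Sult1c2 at -1.03 lie farthest below 0, Slc13a2 at 0.46 farthest above it, and the Slc26a1, Slc26a2 and Sult1d1 points lie close to it.

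On their brightest probe sets the means of the 2 PAPS synthases differed in opposite directions, and neither difference was called. Papss1 and Papss2 both carry out sulfate adenylation and the following phosphorylation, and PAPSS2 is known in humans for its role in cartilage. Papss1 read 9.30, 9.32, 9.50 and 9.29 in the knockout, against 9.24, 9.07, 9.02 and 9.11 in the control. The groups did not overlap, but the lowest knockout value and the highest control value were close. The difference of 0.25 (SE 0.077) was not called (adjusted p = 0.594), and it was 0.20 without knockout sample 3.

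Papss2 had 4 probe sets, which differed in how far they moved. The brightest (1434510_at) read 13.01, 13.23, 13.27 and 13.17 in the knockout, against 13.59, 13.54, 13.49 and 13.44 in the control. All knockout values were below all control values, and the difference was -0.35 (SE 0.075, adjusted p = 0.407), not called. The next (1421989_s_at) read 11.93, 12.08, 12.60 and 11.64 in the knockout, against 12.72, 12.76, 12.85 and 12.41 in the control. Knockout sample 3 lay above control sample 4 there, so the groups overlapped, with a difference of -0.62 (adjusted p = 0.561). Another (1421987_at) read 11.45, 11.78, 12.90 and 10.84 in the knockout, against 12.40, 12.63, 13.09 and 11.44 in the control, and its difference of -0.65 had a 95% interval from -1.60 to 0.30 (adjusted p = 0.786). That difference was -1.04 without knockout sample 3, -0.35 without knockout sample 4 and -0.42 without control sample 3. The last (1421988_at) averaged 3.77 in knockout samples and 3.72 in control samples, less than the array medians.

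Within each group Papss2 varied much more on 1421987_at than on 1434510_at. The range over 4 samples was 2.06 for knockout and 1.65 for control samples on 1421987_at, against 0.26 for knockout and 0.15 for control samples on 1434510_at. On 1421987_at, and also on 1421989_s_at, sample 3 was the highest and sample 4 the lowest of both groups. The labels give no meaning to the number that these samples share, and same-numbered samples did not deviate together over all probe sets. After these values were seen, the genes with the most similar profile to 1421987_at were looked up by the root mean square difference over the 8 samples, each probe set centred on its own mean. They were Barx2, Aldh3a1, Snap23, Hmgcs1 and Cyp51, at 0.44 to 0.48.

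Hmgcs1 and Cyp51 encode enzymes of cholesterol synthesis, and 17 measured genes of that pathway were then listed. Of these, 12 were also highest in sample 3 and lowest in sample 4 of both groups, a pattern found in 2.23% of all named genes. Hmgcs1 read 11.68, 11.58, 12.16 and 11.14 in the knockout, against 11.52, 11.79, 12.10 and 11.16 in the control. Its groups overlapped almost fully, with a difference of -0.0049, and the 17 genes had differences between -0.09 and 0.25. The 12 include Hmgcs1 and Cyp51, whose profiles led to the list. The list was chosen after the values were seen, so the share is a description of these 8 samples.

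**Figure D3:**
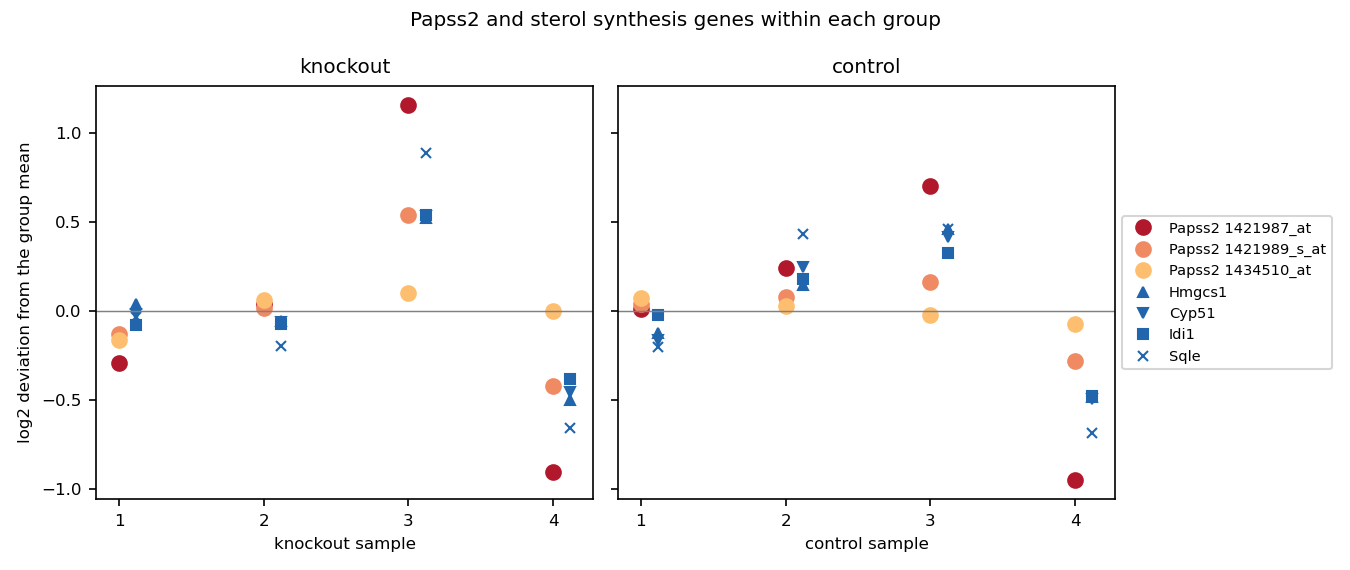
Deviation from the group mean (vertical axis, log2) in knockout samples 1 to 4 (left) and control samples 1 to 4 (right) for 3 Papss2 probe sets (warm colours) and the sterol synthesis genes Hmgcs1, Cyp51, Idi1 and Sqle (blue). Papss2 1421987_at, Papss2 1421989_s_at and the blue points are highest in sample 3 of both groups and lowest in sample 4. Papss2 1434510_at stays near 0.

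Among the cytosolic sulfotransferases, Sult1c2 had lower values in the knockout. It encodes a phenol sulfotransferase known from the stomach and kidney in humans and rats. It read 7.23, 7.27, 7.70 and 7.36 in the knockout, against 8.50, 8.61, 7.95 and 8.60 in the control. All knockout values were below all control values, and control sample 3 was the nearest to them. Knockout samples averaged 7.39 ± 0.21 and control samples 8.42 ± 0.31 (SD, n = 4 each), a difference of -1.03 (SE 0.15, 95% interval -1.37 to -0.68) or 49.1% of the control level. It was not called (adjusted p = 0.0862). Without control sample 3 it was called (adjusted p = 0.00658), as it was without knockout sample 3 (adjusted p = 0.0461), and it was not called with any other single sample left out.

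**Figure D4:**
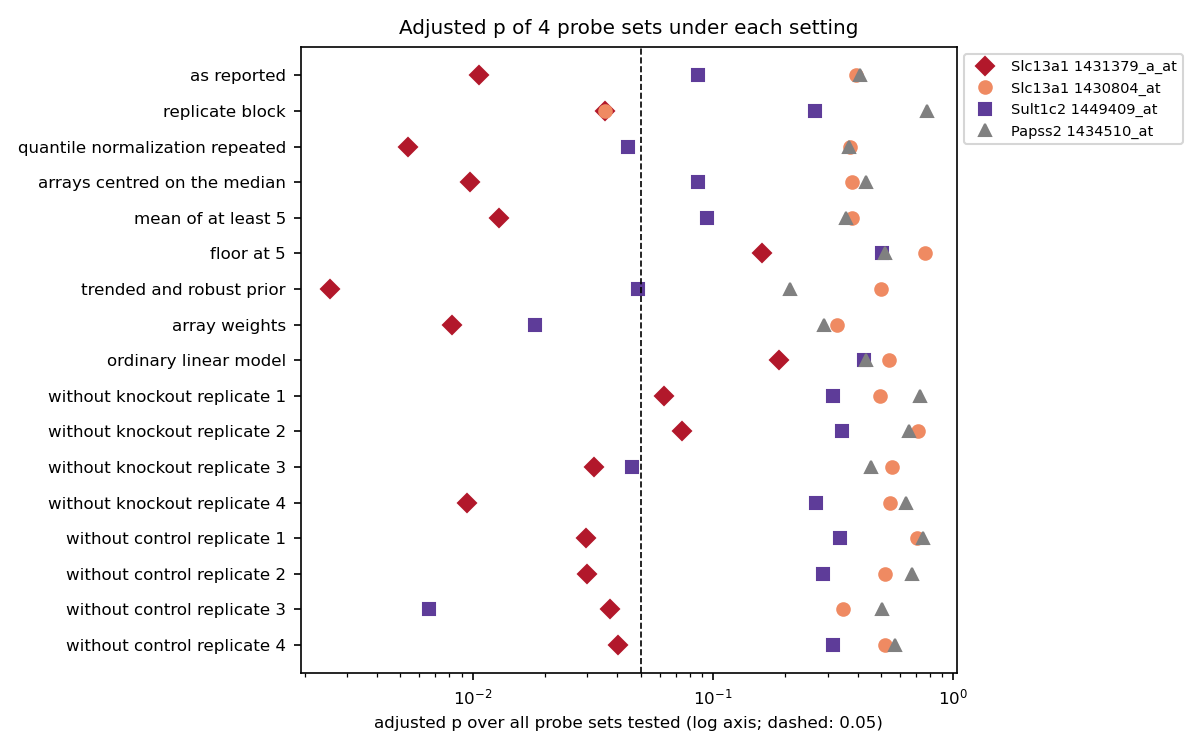
Adjusted p (horizontal log axis, dashed line at 0.05) of 4 probe sets under each alternative setting and with each sample (replicate) left out. Slc13a1 1431379_a_at, as reported at 0.0106, crosses the line with a floor at 5, in the ordinary linear model and without knockout samples 1 or 2, and Sult1c2, as reported at 0.0862, falls below it without control sample 3 or knockout sample 3, with the quantile normalization, with the trended and robust prior and with array weights.

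Markers of the gastric and Brunner gland list had lower means in the knockout too, as did all 10 of the exocrine pancreas list. All 11 measured gastric and Brunner gland markers were below 0, with a median of -0.26. Of these, 0 were called in limma (0 at an unadjusted p under 0.05, and 0 in an ordinary linear model). Their summed level ran from 15.35 to 15.94 in the knockout, against 15.47 to 16.31 in the control, so the groups overlapped. In control samples 1 to 4 the summed level was 15.47, 16.31, 15.92 and 15.95, beside Sult1c2 values of 8.50, 8.61, 7.95 and 8.60. In knockout samples 1 to 4 it was 15.35, 15.94, 15.44 and 15.76, beside Sult1c2 values of 7.23, 7.27, 7.70 and 7.36. The stomach peptides Gkn1 and Tff1 averaged 12.83 and 12.79 in knockout samples, against 13.09 and 12.94 in control samples, while the acid pump gene Atp4a (4.86 in the knockout, 4.94 in the control) and Cblif (4.55 in the knockout, 4.80 in the control) lay below the array medians. The part of gastric or Brunner gland cells in the Sult1c2 values was not tested.

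Sult1b1 differed the other way from Sult1c2. It encodes a sulfotransferase of phenols and thyroid hormones that is known from the intestine and liver. It read 12.35, 12.21, 12.23 and 12.37 in the knockout, against 12.09, 11.89, 12.09 and 11.85 in the control. The groups did not overlap, and the difference of 0.31 (SE 0.081, 95% interval 0.13 to 0.49) was not called (adjusted p = 0.520). The knockout level was 1.24-fold that of the control.

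Sult1d1, which sulfates catecholamines in the mouse, showed overlapping groups on both of its probe sets. The brighter read 11.47, 11.48, 11.36 and 11.78 in the knockout, against 11.82, 11.42, 11.40 and 11.65 in the control. The difference was -0.05 (95% interval -0.31 to 0.21), and on the dimmer probe set it was -0.13 (95% interval -0.45 to 0.19). Among the protein-coding genes of RefSeq's GRCm38.p6 gene table, Sult1d1 is next to Sult1b1 on chromosome 5, followed by Sult1e1. Sult1e1 averaged 3.37 in knockout samples and 3.39 in control samples, less than the array medians. On the other side of Sult1b1 in that order, beyond Ugt2a1 and Ugt2a2, lies the glucuronosyltransferase gene Ugt2b38. It fell by 3.53 on the log2 scale (SE 0.32, adjusted p = 0.00226), with all knockout values below all control values. Ugt2a1 and Ugt2a2 had no probe set with a single symbol. Ugt2a3, beyond Ugt2b38, differed by 0.01 with overlapping groups. Whether these neighbours change together was not tested. Sulfotransferases of a subfamily have similar sequences, and the sources used here do not say how far the probe sets separate them.

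Enterocyte markers mostly had higher means in the knockout, as did Papss1, Sult1b1 and Slc13a2, while Slc13a1 had lower ones. Of 14 measured markers 13 were above 0, with a median of 0.18, and 0 were called in limma (7 at an unadjusted p under 0.05, against 6.83% of the named genes, and 0 in an ordinary linear model). Anpep, an apical peptidase, had 0.43 and Rbp2, a retinol-binding protein, 0.28, while Alpi had -0.22. The summed level of the list ran from 17.38 to 17.56 in the knockout, against 17.23 to 17.40 in the control, so the groups overlapped. All 10 smooth muscle markers were also above 0, with a median of 0.21. Their summed level, 13.53 to 13.92 in the knockout against 13.47 to 13.58 in the control, overlapped too. The part of these cell types in Papss1, Sult1b1, Slc13a2 or Slc13a1 was not tested.

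The profile of Slc13a1 over the 8 samples was closest to those of 5 genes by the same root mean square measure. The thiamine transporter Slc19a3 was nearest at 0.18, followed by Rps4l at 0.20, 9130008F23Rik and the plasma membrane calcium pump Atp2b1 at 0.23 each, and the complement protease Cfi at 0.23. Slc19a3 read 8.59, 8.63, 8.52 and 8.78 in the knockout, against 9.24, 9.19, 9.12 and 9.24 in the control, and its groups did not overlap. Within the groups the order was only partly shared: both genes were highest in sample 4 of the knockout, but Slc19a3 was highest in control sample 1, where Slc13a1 was lowest. Of the 5, Slc19a3 (adjusted p = 0.0312) and Atp2b1 (adjusted p = 0.00221) were called lower. A measure over both groups mostly follows their difference, so it says little beyond it.

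Elsewhere in sulfate handling no gene was called. The 6 further lists held 80 measured genes, of which 0 were called lower and 0 higher in limma, against 0.055% lower and 0.011% higher, 0.066% in all, of the named genes, each gene taken at its brightest probe set. At an unadjusted p under 0.05 there were 9, against 6.83% of the named genes, and an ordinary linear model called 0. Their median difference was -0.02, with 48 of 80 below 0, against 0.0046 and 48.4% over all named genes. Groups did not overlap in 4 lower and 3 higher genes, against 2.07% lower and 2.28% higher, 4.35% in all, of the named genes.

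In the other Slc13 and Slc26 anion transporters 10 of 11 were below 0, with a median of -0.09. Slc26a6, an apical exchanger of chloride, bicarbonate, oxalate and sulfate, read 12.34, 12.26, 12.11 and 12.23 in the knockout, against 12.60, 12.56, 12.64 and 12.78 in the control. Its groups did not overlap, and the difference of -0.41 (SE 0.077) was not called (adjusted p = 0.252). Slc26a5, at -0.24, was below the array medians in both groups, as were 7 of the 11 by their mean over the 8 samples.

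Genes that move PAPS and clear its product differed little. Of 4 measured, 2 were above 0, with a median of 0.03. Bpnt1 and Bpnt2, phosphatases that remove PAP in the cytosol and in the Golgi, had 0.07 and 0.05. Slc35b2 and Slc35b3, which carry PAPS into the Golgi, had -0.04 and -3.75e-05. All 4 had overlapping groups.

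Among the 10 other cytosolic sulfotransferases 6 were above 0, with a median of 0.03. Sult2b1, which sulfates cholesterol, read 10.83 ± 0.11 in knockout samples, against 10.66 ± 0.013 in control samples (SD, 4 mice each), a difference of 0.17 without overlap (adjusted p = 0.689). Sult5a1 had -0.13 (adjusted p = 0.734).

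In the Golgi sulfotransferases 19 of 31 were below 0, with a median of -0.05. Chst2, which sulfates N-acetylglucosamine, read 4.49, 4.56, 5.15 and 4.61 in the knockout, against 5.92, 5.39, 5.43 and 5.17 in the control. The groups did not overlap, although knockout sample 3 and control sample 4 nearly met, and the difference of -0.78 was not called (adjusted p = 0.423). Its values lie around the array medians, and Hs6st2, at 0.22 (adjusted p = 0.561), lay below them.

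Of 13 sulfatases and their activators 7 were below 0, with a median of -0.06. Sumf1, which activates sulfatases, had 0.26 (adjusted p = 0.660), and Arsj had -0.23 (adjusted p = 0.561) from values below the array medians. Of 11 genes that form sulfate or its precursors from sulfur compounds 6 were below 0, with a median of -3.25e-05. Cbs, the first enzyme of transsulfuration, had -0.37 (adjusted p = 0.694) and Mpst, a sulfurtransferase, -0.11 (adjusted p = 0.760).

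**Figure D5:**
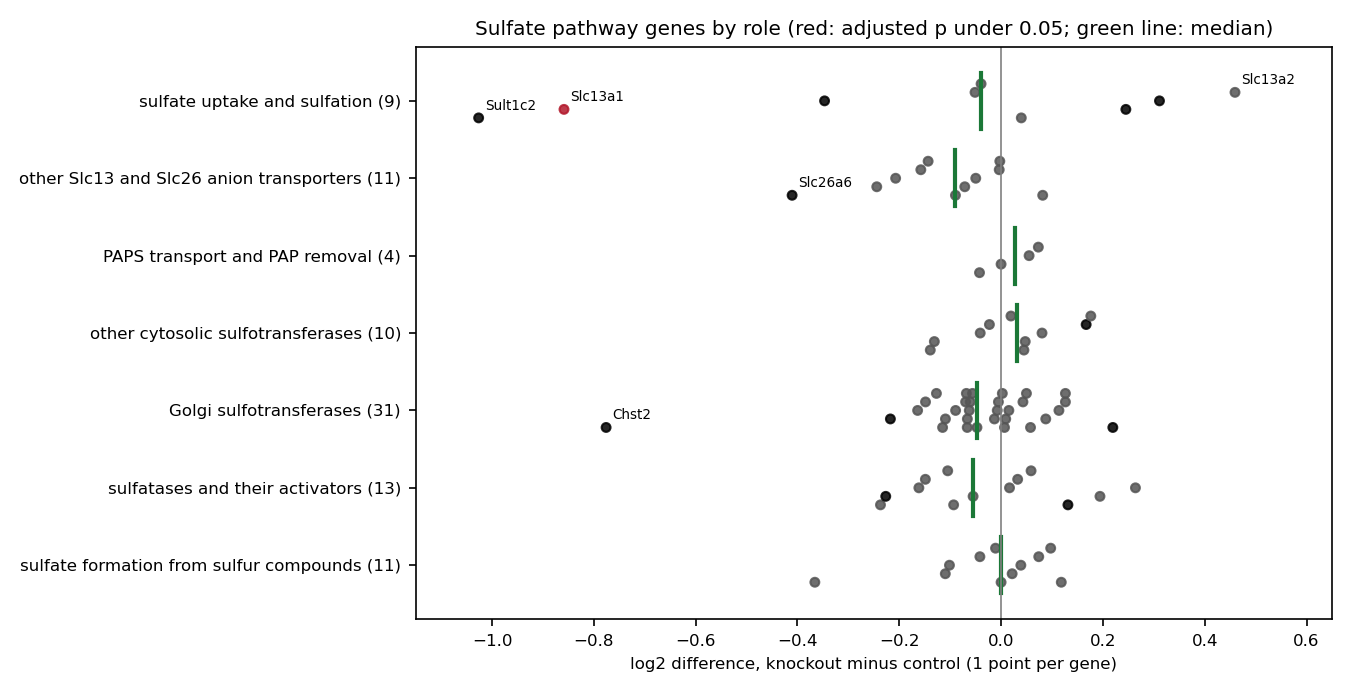
Log2 difference, knockout minus control (horizontal axis), of each gene at its brightest probe set, by role, with the number of genes in parentheses; the green line is the list's median, red marks an adjusted p under 0.05 and black marks groups that do not overlap. Slc13a1 is the 1 red point, and Sult1c2, Chst2 and Slc26a6 lie farthest to the left among the others.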

How the data were processed

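Total RNA of whole proximal small intestine was hybridised to Affymetrix 3' arrays, 4 knockout and 4 control, per the labels' protocols. The authors deposited 1 table of log2 expression values per probe set and array. The submitters' processing notes list Partek 6.4 without a role. How background, summarisation and normalization were handled is not given in the sources used here. Array medians were nearly equal, so a change common to all transcripts would be hidden. No detection calls are in the table, and background in dim probe sets can understate a difference.

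Of 45101 probe sets, 64 array controls were left out. GEO's platform annotation gave gene names, and 34945 probe sets had a single symbol. Knockout minus control was fitted for each of the 45037 probe sets by limma 3.58.1 (lmFit, eBayes; R 4.3.3) with no filter, covariate or block. Tests were two-sided, with Benjamini-Hochberg adjustment over all probe sets and a threshold of 0.05. The 95% intervals use limma's moderated variance. The labels call the samples biological replicates. The code was tested on simulated data. The genes and lists were chosen with earlier results of these data known.

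Named were all 9 genes, Pdx1 and Vil1, of each further list the called genes or the 2 with the smallest p, and the 5 genes closest to Slc13a1. Further genes named (in the marker lists, beside Sult1b1, Slc35b2 and Slc35b3, and the genes set beside Papss2) were chosen after their values were seen. Each gene in a list was read at its brightest probe set by the mean of the 8 samples. A summed level is the log2 of the sum of a list's linear values in a sample. Markers of 9 cell types were read, 90 genes in all. Alternatives tried were the replicate number as a block, each sample left out, arrays centred on the median or quantile normalized again, a mean of at least 5, a floor at 5, array weights, a prior that was trended and robust, an ordinary linear model, a threshold of 0.1, and averaging all probe sets of a gene. Matplotlib 3.10.9 (Python 3.11.15) drew the figures.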

Additional observations from a re-analysis of the deposited data

Results flagged for a closer look

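Each group of 4 samples was checked for a value far from the other 3, by its gap to the nearest of them over the whole range, against Dixon's critical value of 0.829. Of 34 groups, 2 had such a value, where chance gives about 1 in 20. Papss1 read 9.50 in knockout sample 3, above the other knockout samples at 9.29 to 9.32. Sult1d1 read 9.82 in knockout sample 3 on its dimmer probe set, below the other knockout samples at 10.11 to 10.14. Both values came from the same array, and without it the differences were 0.20 for Papss1 and -0.05 for Sult1d1, neither called.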

How the results depend on the processing

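Over all probe sets 19 were called, 4 with a floor at 5, 2 in the ordinary linear model, 29 at a threshold of 0.1, and 13 to 20 with single samples left out. Of the 17 probe sets, 1 was called lower. There were 2 with the replicate block, the repeated quantile normalization, the trended and robust prior, array weights or a threshold of 0.1, 0 with a floor at 5 or the ordinary linear model, and 0 to 2 with single samples left out. The probe set gained was Sult1c2 under the quantile normalization (adjusted p = 0.0443), the trended prior (0.0485), array weights (0.0181) and the threshold of 0.1, and the dimmer Slc13a1 with the replicate block (0.0355). The brighter Slc13a1 lost its call with a floor at 5 (0.159) and in the ordinary linear model (0.188). In both it still had -0.86. No probe set was called higher, and none of the 80 further pathway genes or 90 markers was called, under any of the alternatives, including averaged probe sets for the pathway genes. Of 286 values of single probe sets under alternatives, 275 kept their side of the threshold. Only probe sets of Slc26a1, Slc26a2 and Sult1d1 and the dimmest of Papss2, all with a reported size of 0.053 or less, changed sign. The correlation of same-numbered samples' deviations from their group means was -0.09, -0.12, -0.18 and 0.08, so the numbers were not taken as pairs. With this replicate block 24 probe sets were called. Dim signal limits Slc26a1, the dimmer Slc13a1 and Chst2, and 4 arrays a group limit the rest.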

Other observations

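The marker lists of the other cell types that whole intestine could hold had 0 calls in limma, as did all 90 markers (12 at an unadjusted p under 0.05, against 6.83% of all named genes, and 0 in an ordinary linear model). The median difference was -0.05 for 10 goblet cell markers, with a summed level of 15.91 to 16.18 in knockout samples, against 15.95 to 16.25 in control samples. It was 0.14 for 7 colon markers, 0.07 for 9 T cell markers, 0.07 for 9 macrophage markers and 0.04 for 10 markers of fibroblasts and endothelium. In the colon list Ang4 averaged 12.79 in knockout and 12.92 in control samples. Car1 averaged 4.31 in knockout and 4.44 in control samples, below the array medians. The list therefore mixes high and dim genes in this proximal tissue, and its median does not describe colon cells. All 10 exocrine pancreas markers were below 0, with a median of -0.19 and a summed level of 16.45 to 17.35 in knockout samples, within the 15.60 to 17.77 of control samples.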
